A study of Mus musculus with 12 samples.

Results

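The livers compared here were those of mice killed 13 days after the start of treatment with an siRNA against Eif3m, set against livers of mice given a control siRNA for the same time. All libraries of these labels were used: 3 siRNA and 3 control libraries, 6 of the 12 in the series, and every gene detected in them was followed. The animals were FVB/N mice of 6 to 8 weeks. They received siRNA packed in lipid nanoparticles (LNP) by tail vein at 0.5 mg/kg, with 1 injection per 5 days. The control particles carried a scrambled luciferase siRNA, so both groups carried the particles and an siRNA. Particles given by vein are known to reach mainly hepatocytes, but no promoter or transgene restricted the siRNA to 1 cell type, and RNA was taken from whole ground livers. The remaining 6 libraries come from day 9 livers with the same 2 treatments and were used only to ask whether an effect differed between the days.

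Eif3m encodes subunit m of eIF3, the large initiation factor that binds the 40S ribosomal subunit and brings the eIF2 complex with its initiator tRNA and the mRNA to it. In the liver, translation is heavily used for secreted plasma proteins and for enzymes of lipid, drug and amino acid metabolism. When initiation is disturbed, cells are known to raise the transcripts of the integrated stress response, which phosphorylated eIF2 sets off, and faulty ribosome production is known to stabilise p53.

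RNA was measured as estimated read counts per gene. The 6 libraries held 7650269 to 9630027 counts and 15878 to 16761 genes with at least 1 count. Levels are given as CPM, a count relative to the TMM-scaled library size, and a gene near 1 CPM rested on few counts. The first principal component, 49.2% of the variance, separated the siRNA from the control libraries. On the second, 20.7%, control replicate 3 and siRNA replicate 2 lay at −36.5 and −24.9, while the other 4 libraries lay between 5.13 and 19.1. Counts of interest were therefore also taken without these libraries. Defining hepatocyte transcripts were abundant in every library: albumin alone took 14.4% to 14.7% of the control counts and 8.29% to 11.7% of the siRNA counts. Xist, the RNA of the inactive X chromosome, was at 111 to 198 CPM with control siRNA and 166 to 280 CPM with Eif3m siRNA, and the Y-linked genes Ddx3y, Uty, Kdm5d and Eif2s3y had 0 counts in all 6 (the labels give no sex). The labels do not say that each library is a separate animal. All p-values below then measure the spread between these samples only. Values are listed in the order of replicates 1, 2 and 3, and ± gives the SD over 3 libraries.

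The targeted transcript was almost gone. Eif3m, on mm10 chromosome 2 from 104999656 to 105017080, had 296, 267 and 288 counts in the controls and 18, 26 and 20 in the siRNA livers. This is 39.2, 37.3 and 30.4 CPM with control siRNA and 2.46, 2.35 and 2.13 CPM with Eif3m siRNA, without overlap (log2 fold change −3.94, SE 0.19, edgeR adjusted p = 3.83e-06, Benjamini-Hochberg adjusted). The siRNA livers held 6.503% of the control mean, and an exact two-sided permutation test gave p = 0.1, the smallest that 3 against 3 allows. Its exons overlap those of Ccdc73, and reads of the overlap cannot be assigned by strand because the strand setting is not given in the sources used here.

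Of 11964 genes tested, edgeR called 2014, or 16.8%, at an adjusted p below 0.05. The calls were 1060 genes that were higher (8.86%) and 954 that were lower (7.97%) in the siRNA livers. At least a 2-fold change was seen in 429 of the higher and 383 of the lower genes, and at least an 8-fold change in 31 and 33. The median log2 fold change over all genes was 0.00, and upper-quartile scaling moved it to −0.05 and the share of higher genes among the calls from 52.6% to 45.5%. The count of calls was 866 without siRNA replicate 3, 1054 without control replicate 1 and 1339 without control replicate 2. With both libraries that lay apart left out it was 2600. Counts given below as without a replicate leave out 1 library at a time. The shares 8.86% and 7.97% are the background against which the gene groups below are to be read. Groups did not overlap in 4308 of the 11964 genes, so a lack of overlap is common with 3 against 3 libraries. The highest rises and steepest falls below were chosen among genes without overlap, so for them it is part of the choice.

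**Figure D1:**
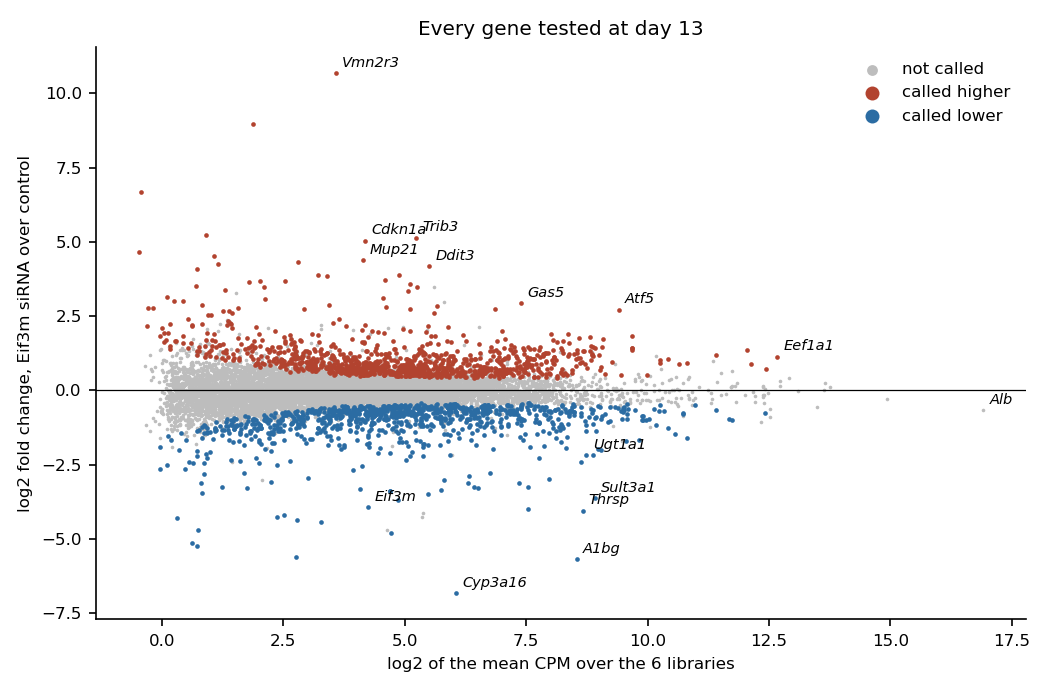
Each point is 1 of the 11964 genes tested at day 13, placed by the log2 of its mean CPM over the 6 libraries (horizontal axis) and its log2 fold change, Eif3m siRNA over control (vertical axis). Genes called higher are red, genes called lower blue and the rest grey. Eif3m lies at −3.94, while the named genes at the top and bottom lie further from 0 in most cases.

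Stress and growth-arrest genes were among the 15 highest rises, taken from genes averaging 5 CPM or more whose groups did not overlap. Trib3, a pseudokinase induced downstream of ATF4 and CHOP, had 2.38, 2.37 and 1.48 CPM with control siRNA and 68.7, 60.5 and 89.7 CPM with Eif3m siRNA (log2 fold change 5.15, SE 0.25, edgeR adjusted p = 3.83e-06). Cdkn1a, which encodes the cell cycle inhibitor p21, had 0.529, 2.51 and 0.317 CPM with control siRNA and 27.6, 29.6 and 48.2 CPM with Eif3m siRNA (log2 fold change 5.04, SE 0.56, edgeR adjusted p = 0.00146). Both sets of 3 siRNA values lay more than 10-fold above the highest control. Ddit3, which encodes the pro-apoptotic regulator CHOP, went from 4.76 ± 1.75 to 85.8 ± 10.3 CPM (log2 fold change 4.19, edgeR adjusted p = 1.41e-05). Its exons overlap those of Mars, which encodes methionyl-tRNA synthetase and had a log2 fold change of −0.35 (edgeR adjusted p = 0.205). Gdf15, a secreted stress factor, had 1.85, 0.977 and 0.7396 CPM with control siRNA and 17.6, 18.6 and 15.8 CPM with Eif3m siRNA. Gadd45a, a growth arrest and DNA damage inducible gene, had 7.15, 5.72 and 5.81 CPM with control siRNA and 73.99, 63.99 and 70.8 CPM with Eif3m siRNA. In both the lowest siRNA value was several-fold above the highest control, with log2 fold changes of 3.88 and 3.48. Bcl6, a transcriptional repressor, rose by 3.72 and Arhgef2, a guanine exchange factor for RhoA that binds microtubules, by 3.58 on the log2 scale. Mup21, a major urinary protein gene, went from 1.63 ± 0.884 to 33.7 ± 9.58 CPM. Egr1, an immediate early transcription factor, stood at 4.24, 4.88 and 2.32 CPM with control siRNA and 18.2, 69.8 and 77.7 CPM with Eif3m siRNA. Its siRNA values spread over more than 4-fold, and the call of Egr1 was lost without siRNA replicate 2, control replicate 1 or control replicate 3 and without the libraries that lay apart.

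Among called genes, 3 had counts in the siRNA livers only: Vmn2r3, Rpsa-ps2 and Gm10157. Vmn2r3, annotated as a vomeronasal receptor, had 0 counts in all 3 controls and 177, 251 and 231 counts in the siRNA livers, or 24.2, 22.7 and 24.6 CPM. Against a floor of 3 counts over the 3 controls, 0.124 CPM, its pooled level of 23.7 CPM was at least 192-fold higher. In the day 9 livers Vmn2r3 had 0 counts in each control and 8, 96 and 23 counts in the siRNA livers. Whether the reads given to Vmn2r3 stem from this gene was not tested. The pseudogene Rpsa-ps2 had 0 counts in the controls and 72, 45 and 75 in the siRNA livers, at least 55.8-fold higher over the same floor. Rpsa-ps2 is a near copy of the ribosomal protein gene Rpsa, so reads of Rpsa may have been assigned to it, which was not tested. Gm10157 had 12, 17 and 12 counts in the siRNA livers. In the day 9 controls Rpsa-ps2 had 46, 62 and 63 counts and Gm10157 had 52, 107 and 59, so neither was absent there. Rpsa-ps2 and Gm10157 were chosen after their values were seen.

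Of the 15 steepest falls chosen in the same way, Eif3m included, 6 are on the list of female-biased liver genes. A1bg, a secreted plasma protein, had 759, 882 and 558 CPM with control siRNA and 15.6, 14.9 and 12.6 CPM with Eif3m siRNA (log2 fold change −5.67, SE 0.23, edgeR adjusted p = 1.77e-06). Cyp3a16, a cytochrome P450, had 117, 47.02 and 232 CPM with control siRNA and 0.4103, 0.362 and 2.67 CPM with Eif3m siRNA (log2 fold change −6.82, SE 1.05, edgeR adjusted p = 0.0154). The 3 controls of Cyp3a16 spanned about a 5-fold range, and its call was lost without siRNA replicate 1 or 2 and without the libraries that lay apart. It is close in sequence to other Cyp3a genes, which makes its count uncertain. Pnpla3, a lipid droplet acylhydrolase, had 14.4, 9.21 and 8.77 CPM with control siRNA and 0.547, 0.724 and 0.427 CPM with Eif3m siRNA. Acot3, a peroxisomal acyl-CoA thioesterase, had 67.5, 28.9 and 56.7 CPM with control siRNA and 2.05, 1.99 and 1.39 CPM with Eif3m siRNA. Groups did not overlap for either of them, at log2 fold changes of −4.20 and −4.81. Acot3 has near copies (Acot1, Acot4), between which reads may be split. Thrsp, a lipogenic protein that responds to thyroid hormone, went from 763 ± 350.4 to 46.3 ± 20.7 CPM (log2 fold change −4.05), a call that was lost without siRNA replicate 2 and without the libraries that lay apart. Mfsd2a, the transporter of lysophosphatidylcholine, fell by 3.68, Lcn2, an acute phase protein, by 3.49 and Dct, dopachrome tautomerase, by 4.26 on the log2 scale. The call of Mfsd2a was lost without the libraries that lay apart. H2-Q1, a class Ib MHC gene with near copies in its cluster, went from 47.6 ± 2.26 to 4.55 ± 0.918 CPM.

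The transcripts of the remaining eIF3 subunits were higher, not lower, where the Eif3m transcript was low. Of 13 such subunits, 10 rose and 0 fell (76.9% rose, against 8.86% of all genes). The core subunit Eif3c had 134, 155 and 131 CPM with control siRNA and 258, 238 and 259 CPM with Eif3m siRNA (log2 fold change 0.85, SE 0.13, edgeR adjusted p = 0.00253). Eif3b, the scaffold of the b-g-i module, had 98.6, 107 and 84.9 CPM with control siRNA and 168, 155 and 163 CPM with Eif3m siRNA (log2 fold change 0.74, SE 0.14, edgeR adjusted p = 0.00558). Eif3g and Eif3i, its partners, rose by 1.02 and 1.05. Controls and siRNA values did not overlap for any of these 4. Eif3j1, a copy of the loosely bound subunit j, stayed at 5.51 ± 0.105 CPM with control siRNA and 5.63 ± 0.676 CPM with Eif3m siRNA (edgeR adjusted p = 0.928), while its paralog Eif3j2 had a log2 fold change of 0.88. Reads of this pair may be split between them. The count of risen subunits was 5 without siRNA replicate 3.

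Ribosomal protein transcripts rose together. Of 47 large-subunit proteins 36 rose and 0 fell (76.6% against 8.86% of all genes), with a median log2 fold change of 1.07 (0.00 over all genes). Of 34 small-subunit proteins 22 rose and 0 fell (64.7%), with a median of 1.17. Rpl13a had 282, 292 and 174 CPM with control siRNA and 989.9, 658 and 858 CPM with Eif3m siRNA (log2 fold change 1.74, SE 0.23, edgeR adjusted p = 9.25e-04). Rps20 had 108, 133 and 79.7 CPM with control siRNA and 302, 243 and 291 CPM with Eif3m siRNA (log2 fold change 1.39, SE 0.19, edgeR adjusted p = 0.00124). Rack1, a scaffold on the head of the 40S subunit, went from 237 ± 51.8 to 674 ± 90.6 CPM. In these 3 genes control replicate 3 was the lowest of all 6 libraries. Not called were 11 large-subunit and 12 small-subunit members, among them Rpl3, Rpl11, Rps6 and Rps18. In the small-subunit list 2 members had negative log2 fold changes. The uncalled members also included paralogs: Rpl22l1, a paralog of Rpl22, had a log2 fold change of 0.01 (edgeR adjusted p = 0.991) and Rps27l, a p53-induced paralog of Rps27, of 0.55 (0.0815). Many of these genes have processed pseudogenes that share their sequence. The large-subunit count was 23 without siRNA replicate 3, and the small-subunit count stayed within 21 to 27 with any 1 library left out.

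Factors that act beside the ribosome moved in the same direction in many cases. Of 43 translation factors outside eIF3, 19 rose and 2 fell (44.2% and 4.65%, against 8.86% and 7.97% of all genes). Eif4g2, a scaffold of cap-independent initiation, had 222, 255 and 317 CPM with control siRNA and 634, 779.97 and 707 CPM with Eif3m siRNA (log2 fold change 1.42, SE 0.17, edgeR adjusted p = 5.92e-04). Eif5, which triggers GTP hydrolysis on the initiator tRNA complex, went from 181 ± 18.4 to 434 ± 42.8 CPM and Pabpc1, the cytoplasmic poly(A)-binding protein, from 276 ± 15.4 to 653 ± 71.8 CPM. The elongation factors Eef1b2 and Eef2 rose by 1.68 and 0.94. Neither group overlapped the other in these 5 genes. The members that fell were both brakes on translation: Eef2k, the kinase that inhibits eEF2, went from 16.2 ± 4.23 to 7.04 ± 2.15 CPM and Eif4ebp2, a repressor of the cap-binding protein, from 333 ± 26.5 to 213 ± 20.8 CPM, calls that were both lost without siRNA replicate 3. Eif4ebp1, a paralog of Eif4ebp2, was not called. Eif1, which guards start codon choice, had a log2 fold change of 0.23 (edgeR adjusted p = 0.411). Among the synthetases that charge tRNA, 8 of 22 rose and 1 fell (36.4% and 4.55%). Aimp1, a scaffold of the multisynthetase complex, was at 1.21 and Farsb at 0.82. Of 77 mitochondrial ribosomal proteins 7 rose and 1 fell (9.09% and 1.3%), a risen share near the 8.86% of all genes. These counts also varied with the libraries used. The risen numbered 1 without control replicate 1, 2 without siRNA replicates 1 or 3 or control replicate 3, 3 without control replicate 2, 12 without siRNA replicate 2, 15 without both libraries that lay apart, 18 in the fit of all 12 libraries and 4 with upper-quartile scaling, and the fallen 0 without siRNA replicate 3 or control replicates 1 or 2, 2 without control replicate 3, 2 without both libraries that lay apart and 2 in the fit of all 12 libraries. The count of risen translation factors was 10 without control replicate 1 and 11 without siRNA replicate 3. That of risen synthetases was 4 without siRNA replicate 3 or control replicate 1 and 5 without siRNA replicate 1, and that of fallen ones 0 without siRNA replicates 1, 2 or 3 or control replicates 1 or 2.

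Genes for building ribosomes rose as well. Of 58 assembly factors of the large subunit and nucleolar proteins, 29 rose and 0 fell (50%), and the list's median log2 fold change was 0.57. Of 52 assembly factors of the small subunit, 20 rose and 0 fell (38.5%, median 0.49). Nop56, a core protein of box C/D small nucleolar particles, had 26.9, 19.8 and 20.7 CPM with control siRNA and 62.4, 64.1 and 71.6 CPM with Eif3m siRNA (log2 fold change 1.56, SE 0.16, edgeR adjusted p = 2.83e-04). Npm1, the nucleolar chaperone nucleophosmin, had 77.95, 94.3 and 72.3 CPM with control siRNA and 205, 199 and 225 CPM with Eif3m siRNA (log2 fold change 1.36, SE 0.15, edgeR adjusted p = 3.30e-04). The siRNA values lay above every control in both genes, and the same held for Rrp12 at 1.35, a processing factor of pre-40S particles, and for Tma16 at 1.55, which binds pre-60S particles. Fbl, the methyltransferase fibrillarin, overlapped between the groups with 31.999 ± 9.89 CPM with control siRNA and 41.4 ± 6.44 CPM with Eif3m siRNA (edgeR adjusted p = 0.302). Of 14 genes of RNA polymerase I and its factors 3 rose, among them Cd3eap, a polymerase subunit, with 2.65, 2.65 and 4.65 CPM with control siRNA and 13.1, 10.3 and 9.495 CPM with Eif3m siRNA. Polr1a, the catalytic subunit, had a log2 fold change of 0.34 (edgeR adjusted p = 0.22). Without siRNA replicate 3, 19 large-subunit and 10 small-subunit assembly factors rose, and the count for RNA polymerase I was 1 without siRNA replicate 3 or control replicates 1 or 2 and 6 in the fit of all 12 libraries.

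Hosts of small nucleolar RNAs (snoRNAs) were among the transcripts with the highest rises. Their introns hold the snoRNAs that guide rRNA modification, and many of their spliced RNAs are known to be degraded by nonsense-mediated decay. Gas5 had 46.6, 44.9 and 25.1 CPM with control siRNA and 309.8, 252 and 329.7 CPM with Eif3m siRNA (log2 fold change 2.94, SE 0.24, edgeR adjusted p = 7.73e-05). Snhg1 had 5.03, 4.05 and 5.39 CPM with control siRNA and 39.7, 41.5 and 45.5 CPM with Eif3m siRNA (log2 fold change 3.12, SE 0.18, edgeR adjusted p = 7.22e-06). Zfas1 had 8.73, 5.302 and 4.12 CPM with control siRNA and 58.9, 67.4 and 55.6 CPM with Eif3m siRNA and Snhg5 had 2.65, 3.21 and 2.01 CPM with control siRNA and 18.3, 19.01 and 19.95 CPM with Eif3m siRNA. In each of these 4 genes the lowest siRNA value was at least 5 times the highest control. Of 12 hosts tested, 6 rose and 0 fell. The exons of Gas5, Snhg1 and Zfas1 overlap annotated snoRNA genes, so some of their counts may come from those.

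Enzymes of nucleotide synthesis rose in 10 of 33 cases and fell in 2. Ctps, the CTP synthase, went from 5.299 ± 1.46 to 14.04 ± 2.73 CPM and Impdh2, the first step towards GTP, from 23.1 ± 3.46 to 40.3 ± 6.21 CPM (edgeR adjusted p = 0.00408 and 0.0119). Adssl1, a muscle-type adenylosuccinate synthase, was among the members that fell, with a log2 fold change of −0.99. The count of risen members was 2 without siRNA replicate 3, 3 without control replicate 1 and 5 without siRNA replicate 1 or control replicate 2, and that of fallen members 4 without both libraries that lay apart and 5 in the fit of all 12 libraries.

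**Figure D2:**
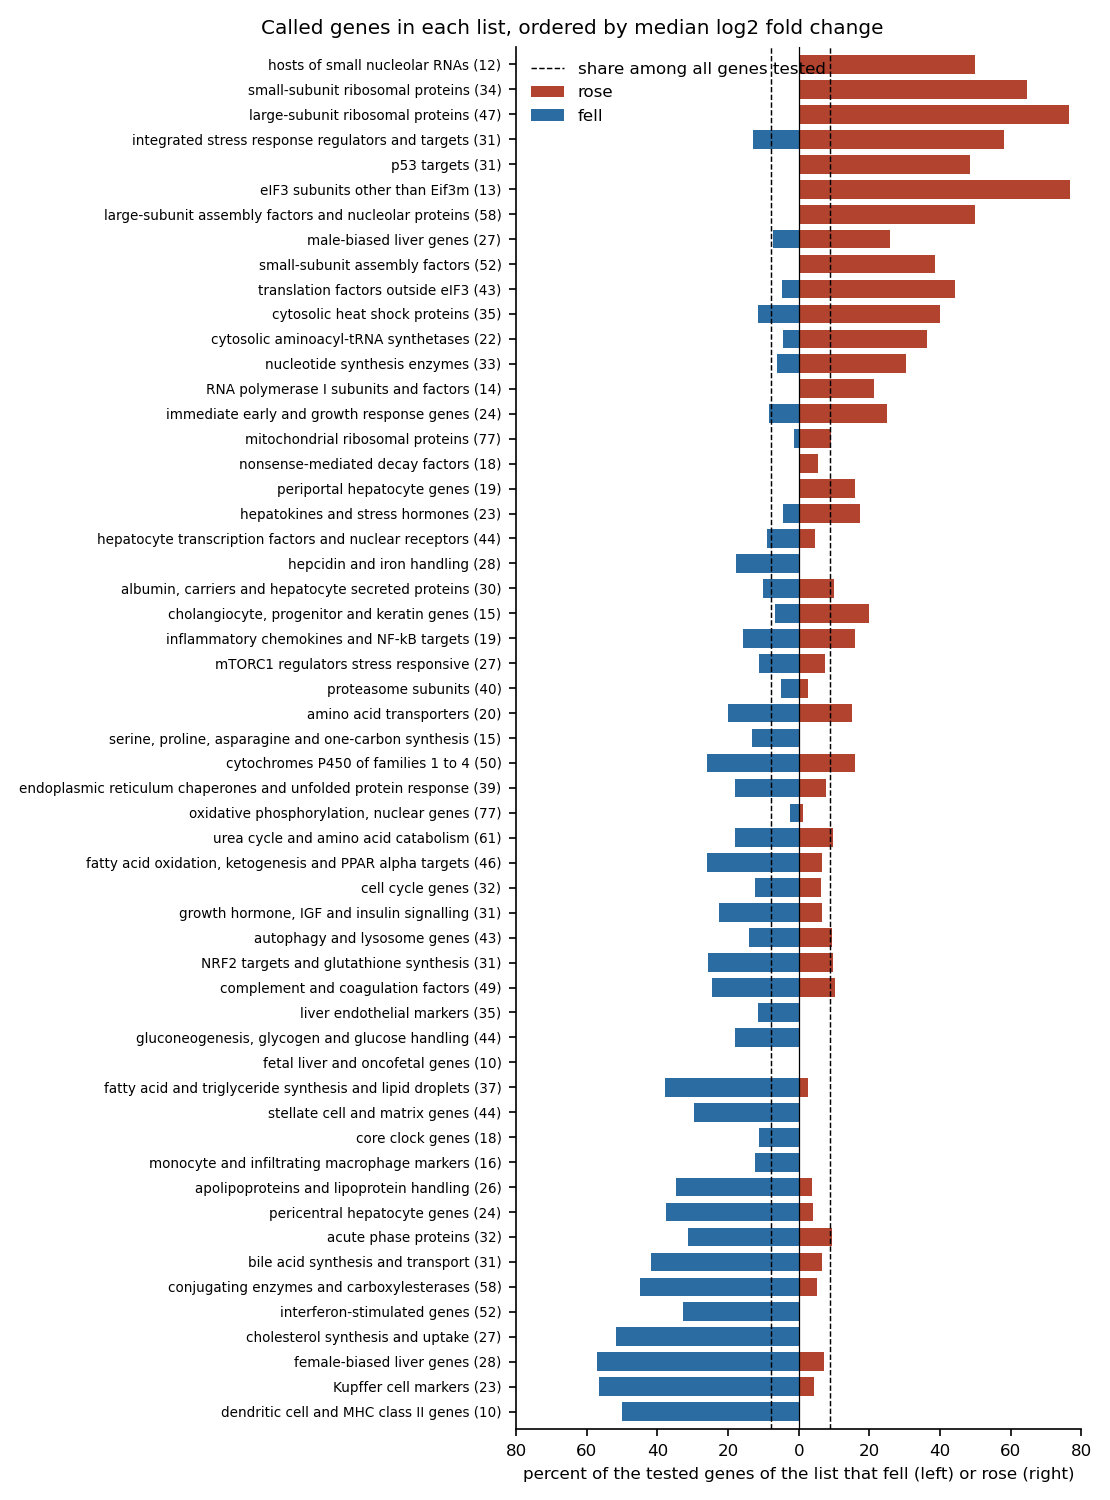
Each bar gives, for a gene list with at least 10 tested members (number in brackets), the percent of its tested genes that rose (red, to the right) or fell (blue, to the left), and lists are ordered by median log2 fold change. The dashed lines mark 8.86% and 7.97%, the shares among all genes tested. Bars for ribosomal proteins, eIF3 subunits and stress response genes reach far to the right, and those for Kupffer cell, female-biased and cholesterol genes far to the left.

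Of 31 regulators and targets of the integrated stress response 18 rose and 4 fell, with a median log2 fold change of 0.97. Besides Trib3, Ddit3 and Gdf15, described above, Atf5, a transcription factor translated when eIF2 is phosphorylated, had 189.6, 219 and 127 CPM with control siRNA and 1361, 986 and 1197 CPM with Eif3m siRNA (log2 fold change 2.72, SE 0.23, edgeR adjusted p = 7.70e-05). Atf3, a further transcription factor of the response, had 5.03, 1.81 and 3.91 CPM with control siRNA and 15.2, 11.4 and 13.8 CPM with Eif3m siRNA (log2 fold change 1.89, SE 0.30, edgeR adjusted p = 0.0026). Sesn2, an inhibitor of mTORC1, went from 6.19 ± 1.31 to 14.9 ± 2.47 CPM, Stbd1, a glycogen-binding protein, from 47.03 ± 4.57 to 138 ± 13.9 CPM and Sqstm1, the autophagy receptor p62, from 239.7 ± 11.2 to 502 ± 49.3 CPM. All 5 genes were higher in every siRNA library than in any control. Atf4 itself, whose protein is set by translation more than by its transcript, stood at 59.3 ± 12.9 CPM with control siRNA and 60.9 ± 7.303 CPM with Eif3m siRNA (edgeR adjusted p = 0.912). Atf5 exons overlap those of Il4i1 and Nup62. Of the 4 members of the response that fell, 1 was called without siRNA replicate 3 and 2 without control replicate 1.

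Asns, Psat1 and Mthfd2, which make amino acids and one-carbon units and are known targets of this response, were not called. Asns, asparagine synthetase, had 0.397, 1.26 and 1.48 CPM with control siRNA and 1.504, 1.63 and 1.81 CPM with Eif3m siRNA (edgeR adjusted p = 0.36). Psat1 and Mthfd2 had log2 fold changes of 0.37 and 0.09 (edgeR adjusted p = 0.587 and 0.919). These 3 genes lay near 1 to 3 CPM, where a change of this size could not be resolved. Of 15 genes of serine, proline, asparagine and one-carbon synthesis 0 rose and 2 fell, one of them Shmt2, the mitochondrial serine hydroxymethyltransferase, with 164, 151 and 131 CPM with control siRNA and 79.6, 66.8 and 72.2 CPM with Eif3m siRNA (log2 fold change −1.03, edgeR adjusted p = 0.00139). The other was Aldh1l1, 10-formyltetrahydrofolate dehydrogenase, at −0.79, whose call was lost without siRNA replicate 3 or control replicate 1. Of 20 amino acid transporters 3 rose and 4 fell. Transporters that rose numbered 0 without siRNA replicate 1 or control replicates 1 or 2, 1 without siRNA replicate 3, 5 without both libraries that lay apart and 5 in the fit of all 12 libraries, and those that fell 1 without siRNA replicate 3 or control replicate 1 and 2 without siRNA replicate 1. The glycine transporter Slc6a9 fell from 26.99 ± 5.597 to 12.8 ± 0.461 CPM, and Slc7a5, the light chain of the leucine exchanger, had a log2 fold change of −0.15 (edgeR adjusted p = 0.682). Among the regulators and targets of the integrated stress response that fell was Eif2ak3, the endoplasmic reticulum kinase PERK. It had 23.95, 25.3 and 24.8 CPM with control siRNA and 10.4, 11.9 and 12.7 CPM with Eif3m siRNA. Ddit4, an mTORC1 inhibitor, also fell, with a log2 fold change of −1.19.

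Of 31 p53 targets 15 rose and 0 fell (48.4% against 8.86%), and the count was 12 to 16 with any 1 library left out. Gdf15, Sesn2 and Tnfrsf10b, which rose, and Bbc3, which was not called, are also in the integrated stress response list, so these lists are not independent. Mdm2, the ubiquitin ligase that degrades p53, had 16.5, 18.6 and 18.9 CPM with control siRNA and 32.4, 39.4 and 37.98 CPM with Eif3m siRNA (log2 fold change 1.02, SE 0.15, edgeR adjusted p = 0.00193). Trp53inp1, a p53-induced nuclear protein, had 26.7, 28.7 and 34.9 CPM with control siRNA and 141, 251 and 210.3 CPM with Eif3m siRNA (log2 fold change 2.74, SE 0.22, edgeR adjusted p = 7.42e-05). Aen, an apoptosis-enhancing nuclease, went from 21.7 ± 2.13 to 77.1 ± 9.47 CPM, and Plk2, a polo-like kinase, from 8.703 ± 1.801 to 27.2 ± 4.04 CPM. Every siRNA value of Mdm2, Trp53inp1, Aen and Plk2 was above every control value. Phlda3 and Eda2r, both at less than 1 CPM in each control, went from 0.499 ± 0.353 to 6.395 ± 2.47 CPM and from 0.161 ± 0.0437 to 4.07 ± 1.97 CPM. Both passed the filter on low counts only through the siRNA libraries, so their lack of overlap was set by the filter. The 5 list members below the filter, Gtse1, Ptprv, Ckap2, Psrc1 and Cgref1, could not be called in either direction. The pro-apoptotic members were unequal: Bax went from 10.3 ± 2.45 to 23.1 ± 6.51 CPM (edgeR adjusted p = 0.0112, lost without siRNA replicate 3), while Bbc3, which encodes PUMA, and the death receptor Fas overlapped between the groups at log2 fold changes of −0.09 and 0.08 (edgeR adjusted p = 0.904 and 0.805).

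Of 32 cell cycle genes tested, 2 rose and 4 fell (6.25% and 12.5%). Those that rose numbered 1 without siRNA replicates 1, 2 or 3 or control replicates 2 or 3, 1 without both libraries that lay apart, 1 in the fit of all 12 libraries, 1 with upper-quartile scaling and 1 among genes of at least 5 CPM. Those that fell numbered 2 without siRNA replicates 2 or 3 or control replicates 1 or 2 and 7 in the fit of all 12 libraries. Ccnd1, cyclin D1, had 156, 107 and 121 CPM with control siRNA and 51.97, 51.8 and 49.5 CPM with Eif3m siRNA (log2 fold change −1.33, SE 0.16, edgeR adjusted p = 6.77e-04). E2f8, a repressive E2F factor, had 7.28, 11.3 and 7.71 CPM with control siRNA and 1.37, 0.996 and 2.24 CPM with Eif3m siRNA (log2 fold change −2.51, SE 0.33, edgeR adjusted p = 9.25e-04), and Mcm7, a subunit of the replicative helicase, had 10.2, 13.8 and 7.396 CPM with control siRNA and 21.6, 25.6 and 31.2 CPM with Eif3m siRNA (log2 fold change 1.33, SE 0.24, edgeR adjusted p = 0.00447). Groups did not overlap in these 3. The proliferation marker Mki67 stood at 2.11 ± 0.851 CPM with control siRNA and 2.14 ± 0.803 CPM with Eif3m siRNA (edgeR adjusted p = 0.981) and Top2a at 1.89 ± 0.67999 CPM with control siRNA and 1.69 ± 0.757 CPM with Eif3m siRNA (edgeR adjusted p = 0.854). Of 24 immediate early genes 6 rose and 2 fell, with the AP-1 subunit Jun at 1.28 and Junb at 1.14. Fallen immediate early genes numbered 1 without siRNA replicates 1 or 2 or control replicates 1 or 2, 4 without control replicate 3, 4 without both libraries that lay apart and 1 with limma-voom.

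Of 35 cytosolic and mitochondrial heat shock proteins and cochaperones 14 rose and 4 fell, or 40% and 11.4% against 8.86% and 7.97% of all genes. The chaperonin subunits Cct4, Cct5 and Tcp1, which fold actin and tubulin, rose by 0.93, 0.89 and 0.83. Hspa9, the mitochondrial Hsp70, had 427, 453 and 450.5 CPM with control siRNA and 1209.8, 1165 and 1196 CPM with Eif3m siRNA (log2 fold change 1.42, SE 0.14, edgeR adjusted p = 1.83e-04), and Hspb1, a small heat shock protein, went from 1.97 ± 0.616 to 13.2 ± 2.45 CPM. Among the members that fell, Hspa1b, an inducible Hsp70 with the near copy Hspa1a, had 37.5, 32.2 and 57.2 CPM with control siRNA and 18.2, 17.8 and 11.6 CPM with Eif3m siRNA (log2 fold change −1.42, SE 0.25, edgeR adjusted p = 0.00447), and the cochaperone Bag3 went from 60.7 ± 10.98 to 18.5 ± 2.77 CPM. In all these genes the groups did not overlap. The unfolded protein response list had 3 risen and 7 fallen genes of 39, or 7.69% and 17.9%. Its risen genes numbered 0 without siRNA replicate 3 or control replicates 1 or 2, 1 without siRNA replicate 1, 6 without both libraries that lay apart and 6 in the fit of all 12 libraries, and its fallen genes 1 without siRNA replicate 3, 2 without control replicate 2 and 4 without siRNA replicate 1. Hspa5, the chaperone BiP, stood at 1039.7 ± 140.4 CPM with control siRNA and 976 ± 23.2 CPM with Eif3m siRNA (edgeR adjusted p = 0.727), and its cochaperone Dnajb9, a target of the IRE1 branch, had 111, 121 and 144 CPM with control siRNA and 34.3, 41.5 and 41.1 CPM with Eif3m siRNA (log2 fold change −1.68, SE 0.16, edgeR adjusted p = 1.61e-04). Ctsl, a lysosomal protease, had 344, 356 and 372 CPM with control siRNA and 1400.5, 1107 and 1336 CPM with Eif3m siRNA (log2 fold change 1.84, edgeR adjusted p = 7.83e-05). The count of risen heat shock members was 6 without siRNA replicate 3 and 7 without control replicate 1.

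Promoter sequences were read for the groups that moved together, to show which of them carry the known response element close to the start of the gene. Windows of 250 bases before to 50 after the RefSeq start (GRCm38.p6) were found for 9115 of 11963 tested gene symbols, and each motif was searched on both strands. The CCAAT-enhancer binding protein and ATF response element, TGATGNAAT, was present in 0.592% of all windows (54). It was in 2 of 25 windows of the integrated stress response list, those of Fgf21 and Nupr1. Both genes rose, but 16 of the 25 windows belonged to risen members, so 2 matches cannot tell whether the element went with a rise. Of all genes called higher 0.903% held the element and of those called lower 0.829%. Fgf21, a hepatokine, had 0.662, 0.977 and 0.106 CPM with control siRNA and 1.78, 2.26 and 5.76 CPM with Eif3m siRNA (edgeR adjusted p = 0.0282, lost without siRNA replicate 3 or control replicate 1 and with the replicate block), and Nupr1, a small stress-induced nuclear protein that was chosen after its values were seen, had 1.19, 1.26 and 1.16 CPM with control siRNA and 3.97, 3.44 and 3.31 CPM with Eif3m siRNA (edgeR adjusted p = 0.00572). The stretches around the matches are given below on the strand of the gene (minus for both), at chr7:45615582-45615670 and chr7:126625533-126625621, with the match in capitals, here in its reverse complement.
Fgf21: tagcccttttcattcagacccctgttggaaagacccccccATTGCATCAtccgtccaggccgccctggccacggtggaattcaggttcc
Nupr1: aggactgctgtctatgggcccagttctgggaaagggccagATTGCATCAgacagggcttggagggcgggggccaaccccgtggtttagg

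The sterol response element, TCACCCCAC, was present in 0.746% of all windows (68) and in 1 of 19 of the cholesterol list, that of Hmgcs1 (chr13:119690174-119690262, plus strand). The interferon-stimulated response element, in its core form GAAANNGAA, was present in 8.7% of all windows (793) and in 23 of 38 windows (60.5%) of interferon-stimulated genes. Among those genes it was in 6 of 11 windows of members that fell and in 17 of 27 of members that were not called, so its presence did not separate them. Of all genes called lower 10.4% held it and of those called higher 9.03%. Igtp (chr11:58199482-58199555, plus strand) and Irgm1 (chr11:48871421-48871490, minus strand) are shown because they are immunity-related GTPases that fell, and the capitals again mark the matches, of which Irgm1 has 2 that overlap. A match is a description of these letters, and no factor was measured at these places.
Hmgcs1: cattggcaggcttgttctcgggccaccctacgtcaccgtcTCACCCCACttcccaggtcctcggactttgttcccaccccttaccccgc
Igtp: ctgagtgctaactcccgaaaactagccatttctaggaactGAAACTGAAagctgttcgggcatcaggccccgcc
Irgm1: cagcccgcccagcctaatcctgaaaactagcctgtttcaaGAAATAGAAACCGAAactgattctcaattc

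**Figure D3:**
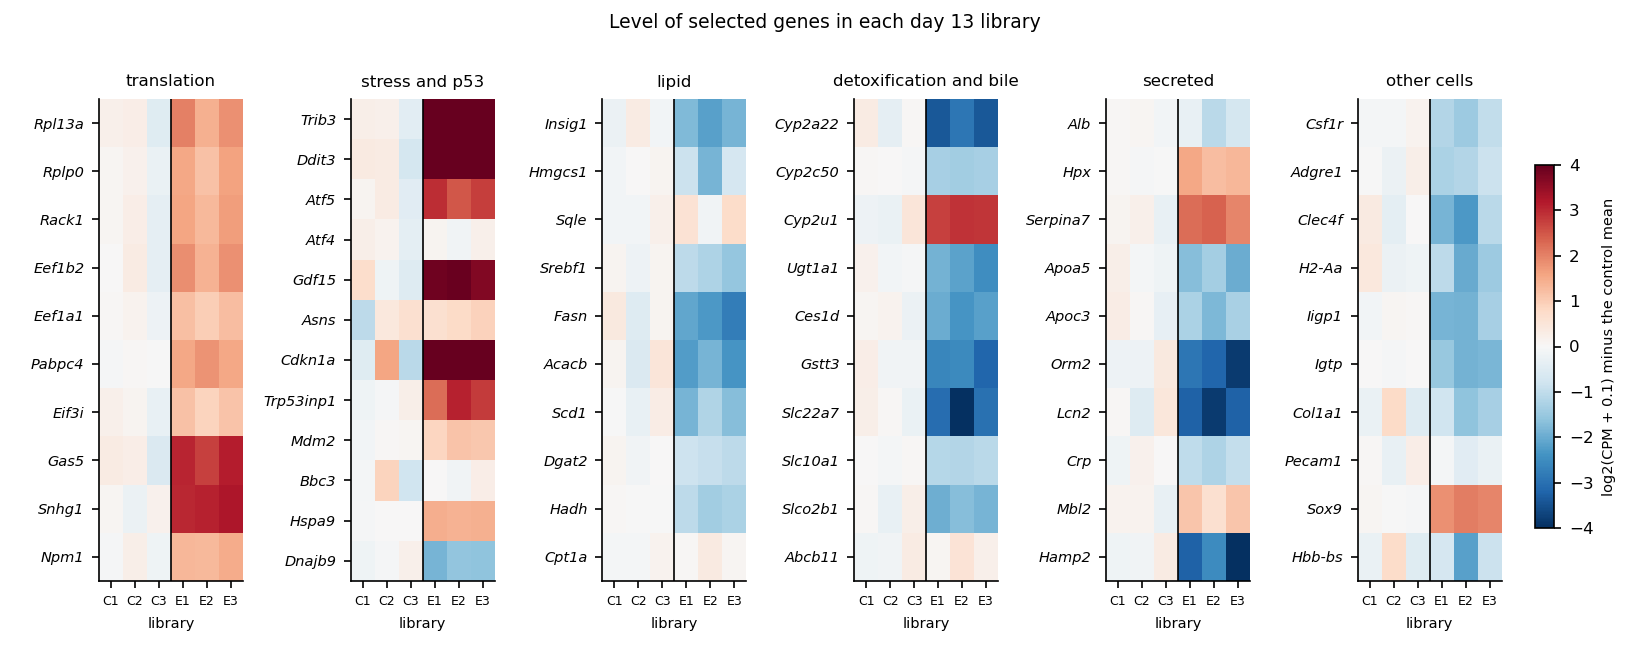
Colours give log2(CPM + 0.1) of a gene in each library minus its mean over the 3 controls, from −4 (blue) to 4 (red). Columns are control replicates 1 to 3 (C1 to C3) and siRNA replicates 1 to 3 (E1 to E3), and the panels hold translation, stress and p53, lipid, detoxification and bile, secreted protein and other cell type genes. Red fills the siRNA columns of the translation panel and of most genes in the stress panel, where Atf4 and Bbc3 stay pale and Dnajb9 is blue, and blue fills those of most lipid, detoxification and macrophage genes.

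Cholesterol genes fell as a group. Of 27 genes of cholesterol synthesis and uptake 14 fell and 0 rose (51.9% against 7.97%), with a median log2 fold change of −0.73. Insig1, the anchor that holds SREBP in the endoplasmic reticulum and itself an SREBP target, had 427, 634 and 463 CPM with control siRNA and 148, 111 and 139 CPM with Eif3m siRNA (log2 fold change −1.94, SE 0.19, edgeR adjusted p = 1.91e-04). Mvd, a late step of the mevalonate pathway, fell from 20.9 ± 4.95 to 5.95 ± 2.73 CPM. Hmgcs1 fell from 294 ± 20.9 to 142 ± 54.7 CPM, with siRNA replicate 2 the lowest, and its call was lost without siRNA replicate 1 or any 1 of the controls. Sqle, squalene epoxidase, was at 0.44 (edgeR adjusted p = 0.196), and the regulator Srebf2 stood at 42.8 ± 3.41 CPM with control siRNA and 37.1 ± 6.802 CPM with Eif3m siRNA (edgeR adjusted p = 0.432). Without control replicate 1, 9 genes of the list fell.

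Lipogenic genes fell as well. Of 37 genes for making fatty acids, triglycerides and lipid droplets, 14 fell and 1 rose, a call that was not stable: the risen numbered 0 without siRNA replicate 1 or control replicates 1, 2 or 3, 2 without siRNA replicate 2, 2 without both libraries that lay apart, 0 in the fit of all 12 libraries, 0 with DESeq2 size factors, 0 with limma-voom and 0 with upper-quartile scaling. Srebf1, the SREBP gene that drives lipogenesis, had 400.2, 324 and 406 CPM with control siRNA and 183, 159 and 128 CPM with Eif3m siRNA (log2 fold change −1.26, SE 0.17, edgeR adjusted p = 0.00106). Fasn, the fatty acid synthase, had 844, 452 and 696 CPM with control siRNA and 153, 132 and 94.4 CPM with Eif3m siRNA (log2 fold change −2.39, SE 0.26, edgeR adjusted p = 4.41e-04), and Acacb, an acetyl-CoA carboxylase, had 57.97, 36.4 and 75.4 CPM with control siRNA and 11.5, 14.8 and 10.5 CPM with Eif3m siRNA (log2 fold change −2.21, SE 0.26, edgeR adjusted p = 7.08e-04). Scd1, the desaturase, went from 2717 ± 569 to 906 ± 220.2 CPM and Dgat2, which completes triglycerides, from 637 ± 58.6 to 333 ± 26.4 CPM. No siRNA value of these 5 genes reached the lowest control. In Fasn and Acacb control replicate 2 was the lowest control, and the call of Fasn was lost without the libraries that lay apart. Dgat1 and the lipase Pnpla2 overlapped between groups at −0.21 and −0.10 (edgeR adjusted p = 0.491 and 0.701). The droplet coat gene Plin2 was at 0.47 (edgeR adjusted p = 0.0834). The count of fallen members was 9 without siRNA replicate 3 or control replicate 1.

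Genes of fatty acid oxidation fell more often than they rose. Of 46 genes of oxidation and ketogenesis and PPAR alpha targets, 12 fell (26.1% against 7.97% of all genes). A further 3 rose (6.52%), a share below the 8.86% of all genes. Hadh, which acts on short-chain hydroxyacyl-CoA, had 424, 399.996 and 399 CPM with control siRNA and 198, 155 and 169 CPM with Eif3m siRNA (log2 fold change −1.23, SE 0.14, edgeR adjusted p = 5.13e-04). Acaa1b, a peroxisomal thiolase, went from 454 ± 118 to 138 ± 24.96 CPM and Acot4, a peroxisomal thioesterase, from 28.5 ± 3.33 to 9.47 ± 2.55 CPM. Cyp4a14, an omega-hydroxylase and PPAR alpha target, rose from 20.4 ± 1.96 to 72.7 ± 21.96 CPM. The rate-setting Cpt1a stood at 198 ± 18.3 CPM with control siRNA and 222 ± 27.5 CPM with Eif3m siRNA (edgeR adjusted p = 0.478). Of 77 nuclear genes of oxidative phosphorylation 1 rose and 2 fell (1.3% and 2.6%), below the shares of all genes. Fallen genes of this list numbered 0 without siRNA replicates 2 or 3 or control replicates 1 or 2, 1 without siRNA replicate 1, 16 without control replicate 3, 17 without both libraries that lay apart, 5 in the fit of all 12 libraries and 4 with no filter on low counts, and risen ones 0 without siRNA replicate 3, 2 without siRNA replicate 2 and 3 without both libraries that lay apart. For fatty acid oxidation the count of fallen genes was 6 without siRNA replicate 3 and 7 without control replicate 1.

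Enzymes that process drugs and other foreign compounds fell broadly. Of 58 conjugating enzymes and carboxylesterases 26 fell and 3 rose (44.8% against 7.97%), with a median log2 fold change of −0.61. Ces1d, a carboxylesterase, had 809.7, 853 and 656 CPM with control siRNA and 196, 148 and 170.1 CPM with Eif3m siRNA (log2 fold change −2.17, SE 0.17, edgeR adjusted p = 6.48e-05). Ugt1a1, the bilirubin glucuronosyltransferase, had 782, 643 and 676 CPM with control siRNA and 187, 158 and 124 CPM with Eif3m siRNA (log2 fold change −2.16, SE 0.18, edgeR adjusted p = 7.92e-05), with exons shared by the other Ugt1a genes. Gstt3, a theta class glutathione transferase, had 225, 171 and 169.6 CPM with control siRNA and 30.5, 32.04 and 20.8 CPM with Eif3m siRNA (log2 fold change −2.76, SE 0.20, edgeR adjusted p = 4.53e-05). The lowest control was more than 3 times the highest siRNA value in each. Fmo1, a flavin monooxygenase, fell from 333 ± 15.1 to 128 ± 4.36 CPM. Of 50 cytochromes P450 of families 1 to 4, 13 fell and 8 rose. Cyp2b10, the classic target of the receptor CAR, had 36.1, 22.6 and 30.4 CPM with control siRNA and 6.15, 5.97 and 3.09 CPM with Eif3m siRNA (log2 fold change −2.55, SE 0.27, edgeR adjusted p = 3.23e-04), and Cyp2c37 and Cyp2c50 fell by 1.86 and 1.35. Cyp2u1, a fatty acid hydroxylase, rose from 6.095 ± 1.86 to 42.9 ± 2.25 CPM. The pregnane-responsive Cyp3a11 overlapped between the groups at 5667 ± 1359 CPM with control siRNA and 5045 ± 141 CPM with Eif3m siRNA (edgeR adjusted p = 0.587). Risen conjugating enzymes and carboxylesterases numbered 0 without siRNA replicate 3 or control replicate 1, 1 without siRNA replicates 1 or 2 and 5 in the fit of all 12 libraries. The count of fallen P450 genes was 8 without siRNA replicate 3 or control replicate 1, and of risen ones 5 without siRNA replicate 3.

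In bile acid synthesis and transport 13 of 31 genes fell and 2 rose. Slc10a1, which takes up conjugated bile acids from blood, had 658, 618 and 673 CPM with control siRNA and 294, 288 and 308 CPM with Eif3m siRNA (log2 fold change −1.13, SE 0.13, edgeR adjusted p = 5.28e-04). Slc22a7, an organic anion transporter, had 112, 98.2 and 80.3 CPM with control siRNA and 11.5, 5.61 and 11.9 CPM with Eif3m siRNA (log2 fold change −3.34, SE 0.28, edgeR adjusted p = 1.01e-04). Abcc3, an exporter to blood, went from 186 ± 35.2 to 66.3 ± 17.4 CPM. The enzymes Cyp27a1 and Akr1d1 fell by 1.05 and 1.09 on the log2 scale. Cyp7a1, the rate-limiting enzyme of bile acid synthesis, had 158, 71.6 and 377 CPM with control siRNA and 65.9, 89.2 and 61.7 CPM with Eif3m siRNA and was not called (log2 fold change −1.49, edgeR adjusted p = 0.188), and its controls spanned about a 5-fold range. Abcb11, the canalicular bile salt pump, stood at 420.1 ± 84.1 CPM with control siRNA and 507 ± 85.4 CPM with Eif3m siRNA (edgeR adjusted p = 0.347). Without siRNA replicate 3, 6 genes of the list fell, and the risen numbered 1 without siRNA replicate 3 or control replicates 1 or 2, 4 without control replicate 3 and 4 without both libraries that lay apart.

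Of 61 genes of the urea cycle and amino acid catabolism 11 fell (18% against 7.97%) and 6 rose, a share of 9.84% near the 8.86% of all genes. Tat and Tdo2, the first enzymes of tyrosine and tryptophan breakdown, had 1443, 1644 and 1870.3 CPM with control siRNA and 4085, 3829 and 3477 CPM with Eif3m siRNA and 713, 1014 and 944 CPM with control siRNA and 1785, 1838 and 1942 CPM with Eif3m siRNA, respectively, and rose by 1.20 and 1.06 on the log2 scale. Otc, the urea cycle carbamoyltransferase, had 429.6, 470.03 and 436 CPM with control siRNA and 293, 269.9 and 243 CPM with Eif3m siRNA (log2 fold change −0.73, SE 0.14, edgeR adjusted p = 0.00616). Prodh, proline dehydrogenase, Haao, a later enzyme of tryptophan breakdown, and Ivd, isovaleryl-CoA dehydrogenase, fell by 1.22, 1.10 and 1.04. All 6 genes were without overlap between groups. The urea cycle genes Ass1, Asl and Arg1 had log2 fold changes of −0.10, −0.08 and 0.36 (edgeR adjusted p = 0.709, 0.805 and 0.108), and Cps1 rose by 0.74, a call lost without siRNA replicate 2 or 3 or control replicate 1 or 2. Without siRNA replicate 3, 6 genes of the list fell.

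Of 44 genes of glucose handling 8 fell and 0 rose. Pklr, the pyruvate kinase of liver glycolysis, had 169, 123 and 152 CPM with control siRNA and 79.2, 73.4 and 60.6 CPM with Eif3m siRNA (log2 fold change −1.06, SE 0.17, edgeR adjusted p = 0.0024). Pdk1, which inhibits pyruvate dehydrogenase, went from 47.4 ± 4.87 to 14.1 ± 2.48 CPM. The groups were apart in both genes. The gluconeogenic genes G6pc and Pck1 overlapped at log2 fold changes of −0.27 and 0.40 (edgeR adjusted p = 0.333 and 0.152). The count of fallen genes was 3 without siRNA replicate 3 or control replicate 1 and 5 without control replicate 2.

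Of 44 hepatocyte transcription factors and nuclear receptors, 2 rose and 4 fell (4.55% and 9.09%), near or below the shares of all genes. The risen factors numbered 1 without siRNA replicate 3 or control replicate 2, 4 without control replicate 3, 4 without both libraries that lay apart, 5 in the fit of all 12 libraries and 4 with DESeq2, and the fallen 2 without siRNA replicate 3 or control replicate 1. Hnf4a, the leading hepatocyte factor, stood at 656 ± 65.7 CPM with control siRNA and 643 ± 63.3 CPM with Eif3m siRNA (log2 fold change −0.03, SE 0.15, edgeR adjusted p = 0.913) and Cebpa at 325 ± 66.2 CPM with control siRNA and 283 ± 69.4 CPM with Eif3m siRNA (log2 fold change −0.20, SE 0.21, edgeR adjusted p = 0.556). Nr1i3, which encodes the xenobiotic receptor CAR, had 159, 106 and 102 CPM with control siRNA and 63.05, 47.3 and 57.6 CPM with Eif3m siRNA (log2 fold change −1.13, SE 0.20, edgeR adjusted p = 0.00428), without overlap. Nr1i2 (PXR) and Nr1h4 (FXR) were at 0.44 and 0.09 (edgeR adjusted p = 0.0844 and 0.711). Of 24 pericentral hepatocyte genes, those of the zone near the central vein, 9 fell and 1 rose, and 5 fell without siRNA replicate 3. Glul, glutamine synthetase of the innermost layer, had 936, 910.2 and 870.3 CPM with control siRNA and 584, 502 and 549 CPM with Eif3m siRNA (log2 fold change −0.73, SE 0.14, edgeR adjusted p = 0.00657), and Rgn, regucalcin, fell by 0.99 on the log2 scale. The Wnt targets Axin2 and Lgr5 overlapped at −0.31 and −0.57 (edgeR adjusted p = 0.426 and 0.275). Of 19 periportal genes 3 rose and 0 fell, and the risen were 0 without control replicate 2 and 1 without siRNA replicates 1 or 3 or control replicate 1.

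Of 31 genes of growth hormone, IGF and insulin signalling 7 fell (22.6% against 7.97%), 2 rose and 22 were not called. Risen genes of this list numbered 1 without siRNA replicate 3 or control replicates 1, 2 or 3 and 1 without both libraries that lay apart. Growth hormone acts through its receptor and STAT5, and its pulse pattern sets much of the sex bias of the liver. Ghr, the receptor, had 447, 503 and 585 CPM with control siRNA and 268, 311 and 269 CPM with Eif3m siRNA (log2 fold change −0.86, SE 0.15, edgeR adjusted p = 0.00449). The STAT5 target Cish had 36.3, 28.3 and 14.5 CPM with control siRNA and 3.28, 4.07 and 4.91 CPM with Eif3m siRNA (log2 fold change −2.67, SE 0.34, edgeR adjusted p = 0.00106), and Socs2, also a STAT5 target and a feedback inhibitor, had 50.7, 44.6 and 30.5 CPM with control siRNA and 12.9, 8.24 and 8.64 CPM with Eif3m siRNA (log2 fold change −2.09, SE 0.24, edgeR adjusted p = 4.91e-04). Igfals, the subunit that holds IGF-I in plasma, went from 155 ± 11.2 to 66.2 ± 12.3 CPM. In all 4 the highest siRNA value was below the lowest control, and the call of Cish was lost in the fit of all 12 libraries. Igf1 itself stood at 837 ± 98.5 CPM with control siRNA and 655 ± 73.9 CPM with Eif3m siRNA (log2 fold change −0.35, edgeR adjusted p = 0.156). Igfbp1, a binding protein raised by stress and fasting, had 4.63, 15.2 and 4.44 CPM with control siRNA and 36.7, 49.2 and 181 CPM with Eif3m siRNA and was not called (edgeR adjusted p = 0.0733), with siRNA replicate 3 far above the others.

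Female-biased liver genes fell and several male-biased ones rose. Of 28 female-biased genes 16 fell and 2 rose (57.1% against 7.97%), with a median log2 fold change of −0.94 and 12 to 17 fallen members with any 1 library left out. Besides A1bg and Cyp3a16 above, Sult3a1, a sulfotransferase, had 708, 700.4 and 1268 CPM with control siRNA and 51.3, 80.6 and 86.1 CPM with Eif3m siRNA (log2 fold change −3.62, SE 0.30, edgeR adjusted p = 1.31e-04), and Slc22a26, an organic anion transporter, had 154, 139.8 and 203 CPM with control siRNA and 20.7, 16.8 and 13.3 CPM with Eif3m siRNA (log2 fold change −3.30, SE 0.21, edgeR adjusted p = 1.76e-05). Cux2, a female-specific repressor of male-biased genes, had 17.7, 11.998 and 25.99 CPM with control siRNA and 0.547, 0.815 and 1.17 CPM with Eif3m siRNA (log2 fold change −4.41, SE 0.37, edgeR adjusted p = 7.83e-05), and Prlr, the prolactin receptor, went from 397 ± 37.7 to 154 ± 3.66 CPM. The groups were far apart in these 4 genes. Cyp3a44 and Cyp4a14 were the members that rose: Cyp3a44 had 126, 86.2 and 114 CPM with control siRNA and 376, 344 and 511 CPM with Eif3m siRNA (log2 fold change 1.92, edgeR adjusted p = 2.83e-04), and its sequence is close to that of Cyp3a16. Of 27 male-biased genes 7 rose and 2 fell. Male-biased genes that rose numbered 11 without both libraries that lay apart, and those that fell 0 without siRNA replicates 1, 2 or 3 or control replicates 1 or 2, 5 without both libraries that lay apart, 1 in the fit of all 12 libraries, 1 with limma-voom and 1 with no filter on low counts. Hsd3b5, a steroid dehydrogenase, had 5.16, 5.58 and 1.37 CPM with control siRNA and 25.7, 15.6 and 21.98 CPM with Eif3m siRNA (log2 fold change 2.41, edgeR adjusted p = 0.00801), Mup20 went from 15.2 ± 4.07 to 39.5 ± 3.37 CPM and C6, a complement factor, from 6.89 ± 1.27 to 23.3 ± 6.86 CPM. The male-biased Cyp2d9 and Cyp7b1 overlapped at log2 fold changes of 0.14 and −0.32 (edgeR adjusted p = 0.781 and 0.596). Bcl6, a male-biased repressor among the highest rises, had 2.25, 2.51 and 5.28 CPM with control siRNA and 40.5, 46.3 and 48.9 CPM with Eif3m siRNA. Mup genes are near copies of each other, so their split is uncertain.

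**Figure D4:**
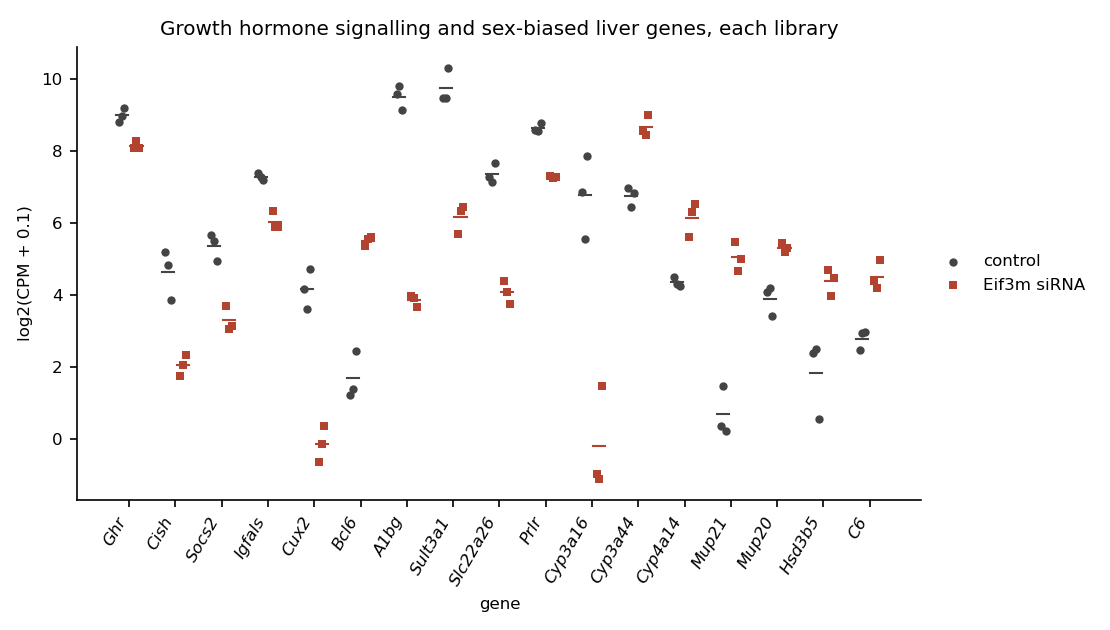
Dots give log2(CPM + 0.1) of each gene in each control (grey circles) and Eif3m siRNA library (red squares), and horizontal bars are the means over 3 libraries. From Ghr to Igfals and from A1bg to Prlr the siRNA values lie below all controls, and from Mup21 to C6 above them.

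Of 30 carriers and other hepatocyte secreted proteins 3 rose and 3 fell, shares near those of all genes. Risen ones numbered 8 without siRNA replicate 2, 8 without both libraries that lay apart, 6 in the fit of all 12 libraries, 6 with DESeq2 and 5 with no filter on low counts, and fallen ones 8 in the fit of all 12 libraries and 5 with DESeq2. Albumin (Alb) was at 152131 ± 10338 CPM with control siRNA and 95961 ± 25250.5 CPM with Eif3m siRNA and was not called (log2 fold change −0.66, SE 0.21, edgeR adjusted p = 0.0519), with siRNA replicate 2 the lowest of the 6 libraries. Hpx, the heme carrier hemopexin, had 2444, 2253 and 2338 CPM with control siRNA and 6878, 5496 and 5890.3 CPM with Eif3m siRNA (log2 fold change 1.38, SE 0.16, edgeR adjusted p = 5.12e-04), and Serpina7, thyroxine-binding globulin, had 17.1, 18.1 and 12.995 CPM with control siRNA and 74.9, 82.1 and 61.3 CPM with Eif3m siRNA (log2 fold change 2.18, SE 0.18, edgeR adjusted p = 7.83e-05). Both rose without overlap. Of 26 genes of apolipoproteins and lipoprotein handling 9 fell and 1 rose (0 without siRNA replicates 2 or 3 or control replicates 1 or 3 and 0 without both libraries that lay apart). Apoa5, which promotes triglyceride clearance, had 1616, 1293 and 1203 CPM with control siRNA and 419, 528 and 344 CPM with Eif3m siRNA (log2 fold change −1.67, SE 0.20, edgeR adjusted p = 5.31e-04), and Apoc3, which inhibits it, went from 2239 ± 474 to 814 ± 159 CPM. Apob, the scaffold of VLDL, stood at 3233 ± 701 CPM with control siRNA and 3519 ± 601 CPM with Eif3m siRNA (edgeR adjusted p = 0.723). The count of fallen apolipoprotein genes was 4 without control replicate 1 and 5 without siRNA replicate 3 or control replicate 2.

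The acute phase list had 10 fallen and 3 risen genes of 32. The fallen share was 31.2% against 7.97% of all genes, and the risen share, 9.38%, was near the 8.86% of all genes. Orm1, the acute phase glycoprotein orosomucoid, had 728, 690.5 and 701 CPM with control siRNA and 287, 200.3 and 332 CPM with Eif3m siRNA (log2 fold change −1.37, SE 0.19, edgeR adjusted p = 0.00121), and its near copy Orm2 had 25.9, 26.1 and 39.4 CPM with control siRNA and 3.97, 3.26 and 2.03 CPM with Eif3m siRNA (log2 fold change −3.32, SE 0.27, edgeR adjusted p = 7.42e-05). Crp fell from 355 ± 42.3 to 169.5 ± 18.3 CPM. All siRNA values of these 3 were below the controls. Saa1, serum amyloid A, was at 5 CPM or less in every siRNA liver, against 52.8, 16.2 and 165 CPM in the controls, and was not called (edgeR adjusted p = 0.0571) with controls that spread over about 10-fold. Of 49 complement and coagulation factors 12 fell (24.5% against 7.97%) and 5 rose, a share of 10.2% near the 8.86% of all genes. Among those called were Cfb, of the alternative pathway, at −0.87, coagulation factor F7 at −0.81 and the mannose-binding lectin Mbl2 at 0.96. C3 stood at 12741 ± 982 CPM with control siRNA and 12813 ± 346 CPM with Eif3m siRNA (edgeR adjusted p = 0.979). Without siRNA replicate 3, 6 acute phase genes and 4 complement and coagulation factors fell, and 5 and 5 of the latter without control replicate 1 or 2. Complement and coagulation factors that rose numbered 2 without siRNA replicate 3 or control replicate 1 and 3 without siRNA replicates 1 or 2. Hamp, the iron hormone hepcidin, overlapped at 1130.1 ± 124 CPM with control siRNA and 1128 ± 427 CPM with Eif3m siRNA (edgeR adjusted p = 0.997), and the iron exporter Slc40a1 went from 271 ± 5.75 to 172 ± 19.8 CPM (edgeR adjusted p = 0.00992).

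Transcripts of Kupffer cells, macrophages that reside in the sinusoids, were lower. Of 23 markers 13 fell and 1 rose (56.5% against 7.97%), the median log2 fold change was −1.05, and their summed level was 1039 to 1169 CPM with control siRNA and 583 to 697 CPM with Eif3m siRNA. In whole liver RNA, fewer cells of a type and less RNA per cell cannot be told apart. Csf1r, the receptor for the macrophage growth factor, had 73.6, 73.7 and 84.1 CPM with control siRNA and 34.1, 27.97 and 38.6 CPM with Eif3m siRNA (log2 fold change −1.20, SE 0.16, edgeR adjusted p = 9.79e-04). Adgre1, which encodes F4/80, had 19.6, 16.7 and 23.03 CPM with control siRNA and 8.07, 8.599 and 10.7 CPM with Eif3m siRNA (log2 fold change −1.12, SE 0.19, edgeR adjusted p = 0.00353), and C1qa, a complement subunit made by macrophages, had 40.2, 35.02 and 28.9 CPM with control siRNA and 16.4, 13.1 and 16.6 CPM with Eif3m siRNA (log2 fold change −1.17, SE 0.18, edgeR adjusted p = 0.00211). Every siRNA library was below every control in these 3. Clec4f, the lectin that is most specific to Kupffer cells, had 115, 67.5 and 90.6 CPM with control siRNA and 24.2, 18.1 and 42.04 CPM with Eif3m siRNA (log2 fold change −1.70, SE 0.32, edgeR adjusted p = 0.0103), and its call was lost without siRNA replicate 1 and without the libraries that lay apart. Vsig4 and Marco overlapped at −1.07 and 0.75 (edgeR adjusted p = 0.0554 and 0.207). Slco2b1 and Slc40a1 are in this list but are also expressed by hepatocytes, and the risen member was C6, which the male-biased list also holds. Without control replicate 1, 8 markers fell, and 11 without the libraries that lay apart.

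Antigen presentation genes were lower too. Of 10 genes of dendritic cells and MHC class II 5 fell and 0 rose, and the summed level was 248 to 362 CPM with control siRNA and 95.9 to 160.2 CPM with Eif3m siRNA. Cd74, the invariant chain, had 206, 131 and 161 CPM with control siRNA and 86.98, 46.3 and 58.9 CPM with Eif3m siRNA (log2 fold change −1.38, SE 0.25, edgeR adjusted p = 0.00538), and Ctss, the protease that trims it, had 49.8, 44.9 and 47.97 CPM with control siRNA and 21.9, 19.3 and 21.8 CPM with Eif3m siRNA (log2 fold change −1.18, SE 0.14, edgeR adjusted p = 5.61e-04). The groups were apart in both, though the call of Cd74 was lost without the libraries that lay apart. The count of fallen genes was 3 without siRNA replicate 3 or control replicate 1 and 3 without both libraries that lay apart. Markers of recruited monocytes had 2 fallen (0 without siRNA replicate 3 or control replicate 2, 1 without siRNA replicate 1 or control replicate 1 and 5 in the fit of all 12 libraries) and 0 risen genes of 16, a summed level of 1967 to 2.37e+03 CPM with control siRNA and 1637 to 1.92e+03 CPM with Eif3m siRNA and Ccr2 at 1.89 ± 0.685 CPM with control siRNA and 1.44 ± 0.477 CPM with Eif3m siRNA (edgeR adjusted p = 0.536).

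Of 52 interferon-stimulated genes 17 fell and 0 rose (32.7% against 7.97%), with a median log2 fold change of −0.64. Among those that fell were Iigp1, Igtp and Irgm1, immunity-related GTPases that defend against intracellular parasites, whereas Tgtp2, of the same family, had a log2 fold change of −0.27 (edgeR adjusted p = 0.838) and was chosen after its values were seen. Iigp1 had 242, 274 and 270.5 CPM with control siRNA and 72.1, 70.6 and 104 CPM with Eif3m siRNA (log2 fold change −1.67, SE 0.17, edgeR adjusted p = 2.80e-04), Igtp had 50.7, 48.97 and 50.8 CPM with control siRNA and 17.5, 13.6 and 14.2 CPM with Eif3m siRNA (log2 fold change −1.74, SE 0.15, edgeR adjusted p = 1.09e-04) and Irgm1 had 36.1, 44.9 and 41.8 CPM with control siRNA and 15.6, 15.3 and 16.6 CPM with Eif3m siRNA (log2 fold change −1.37, SE 0.15, edgeR adjusted p = 3.93e-04). In all 3 the lowest control was more than 2 times the highest siRNA value. Igtp exons overlap those of Irgm2. Zbp1, a sensor of left-handed nucleic acid, went from 5.61 ± 1.48 to 0.805 ± 0.164 CPM, and Usp18, which removes ISG15 from proteins, from 6.11 ± 0.989 to 1.83 ± 0.212 CPM. Isg15, Ifit1 and Oas1a overlapped between the groups at log2 fold changes near the list's median, −0.64, −0.67 and −0.52 (edgeR adjusted p = 0.277, 0.319 and 0.504). The count of fallen genes was 11 without siRNA replicate 3 or control replicate 1 and 27 in the fit of all 12 libraries. The Kupffer cell and MHC class II sums were lower in the same libraries, and their part in the result was not tested.

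Of 44 stellate cell and matrix genes 13 fell and 0 rose, a count that rested on single libraries: it was 1 without siRNA replicate 3, 4 without siRNA replicate 1 or control replicate 2, 5 without control replicate 1 and 6 without siRNA replicate 2. Their summed level was 1.41e+03 to 1.73e+03 CPM with control siRNA and 1061 to 1.16e+03 CPM with Eif3m siRNA. Ecm1, a secreted matrix regulator, had 123, 94.6 and 89.2 CPM with control siRNA and 61.96, 40.6 and 54.4 CPM with Eif3m siRNA (log2 fold change −0.97, SE 0.19, edgeR adjusted p = 0.00778). Col1a1, the main fibrillar collagen, had 24.4, 49.9 and 20.3 CPM with control siRNA and 16.7, 9.504 and 11.4 CPM with Eif3m siRNA (log2 fold change −1.34, SE 0.37, edgeR adjusted p = 0.0443), with control replicate 2 high among the controls, and this call was lost in 5 of the 6 fits that left out 1 library. The stellate cell identity gene Lrat stood at 19.5 ± 3.07 CPM with control siRNA and 18.1 ± 1.25 CPM with Eif3m siRNA and Reln at 70.5 ± 7.12 CPM with control siRNA and 61.5 ± 8.17 CPM with Eif3m siRNA (edgeR adjusted p = 0.69 and 0.411). Of 35 endothelial markers 4 fell (0 without siRNA replicate 3 or control replicate 1, 1 without siRNA replicate 2 and 2 without siRNA replicate 1 or control replicate 3) and 0 rose, with a summed level of 1013 to 1226 CPM with control siRNA and 908 to 976 CPM with Eif3m siRNA, and Pecam1 and Kdr overlapped at −0.30 and −0.11 (edgeR adjusted p = 0.309 and 0.657).

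Among cholangiocyte, progenitor and keratin genes 3 of 15 rose and 1 fell (2 without siRNA replicate 2 and 2 without both libraries that lay apart). Sox9, a factor of bile duct and progenitor cells, had 2.12, 1.95 and 1.902 CPM with control siRNA and 7.39, 8.599 and 8.002 CPM with Eif3m siRNA (log2 fold change 2.00, SE 0.23, edgeR adjusted p = 4.41e-04), and Krt18, the keratin of hepatocytes and ducts, had 114, 148 and 102 CPM with control siRNA and 310.5, 198 and 276 CPM with Eif3m siRNA (log2 fold change 1.11, SE 0.20, edgeR adjusted p = 0.00489). Krt19, the duct keratin, stood at 2.09 ± 0.325 CPM with control siRNA and 1.904 ± 0.891 CPM with Eif3m siRNA (edgeR adjusted p = 0.869). Prom1, a progenitor surface protein that is also female-biased, fell by 1.27 on the log2 scale, a call that was lost in the fit of all 12 libraries. Sox9 and Krt18 were above every control in each siRNA library.

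Red blood cell transcripts were abundant, whereas markers of neutrophils and lymphocytes were sparse. The globins Hba-a1 and Hbb-bs ranged over 1196, 2309 and 991 and 681, 1356 and 587 CPM in the controls and 881, 244 and 782 and 513, 179 and 449 CPM in the siRNA livers, with control replicate 2 highest and siRNA replicate 2 lowest, and neither was called (edgeR adjusted p = 0.207 and 0.158). Of 17 neutrophil markers 4 passed the filter on low counts, 1 was at 0 in all 6 libraries, and the 1 that fell was Lcn2, which hepatocytes also make in the acute phase. T and NK cell markers summed to 12.9 to 19.6 CPM with control siRNA and 6.698 to 10.5 CPM with Eif3m siRNA, with Cd3e at 1.93 ± 0.626 CPM with control siRNA and 2.25 ± 0.894 CPM with Eif3m siRNA (edgeR adjusted p = 0.779) and the kinase Zap70 at 7.81, 5.302 and 5.81 CPM with control siRNA and 1.23, 1.18 and 1.49 CPM with Eif3m siRNA (log2 fold change −2.27, SE 0.28, edgeR adjusted p = 7.22e-04). Of B and plasma cell markers 3 were tested and 0 rose or fell.

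Day 9 livers of the same treatments gave a separate set of libraries, made with a KAPA mRNA capture kit where the day 13 labels name Neoprep, and sequenced to 38783564 to 54538581 counts. Day, kit and depth therefore cannot be told apart in what follows. Fitting all 12 libraries, the difference between the siRNA effects was called for 364 of 14248 genes, or 2.55%, 128 positive and 236 negative (day 13 minus day 9). Upper-quartile scaling changed this split to 86 positive and 290 negative. The count was 155 without day 13 siRNA replicate 3 and 222 without day 13 control replicate 1. It was 130 and 164 without day 9 siRNA replicates 1 and 3, and 172, 187 and 207 without day 9 control replicates 1, 2 and 3. Of the 2014 genes called at day 13, 868 were also called in the same direction at day 9, 32 in the opposite direction, and 1114 were not called there. The 2 days have separate controls.

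Called differences were more frequent in several gene lists than the 2.55% of all genes. Day 13 values also enter the difference, and 261 of the 2014 genes called at day 13 had a called difference. For lists with many genes called at day 13, 2.55% is therefore not a like background. Of 47 large-subunit ribosomal proteins 4 had a called difference, all positive, and of 27 cholesterol genes 0 had one. Female-biased genes had 8 called differences of 28, all negative: A1bg had a log2 fold change of −0.68 at day 9 and −5.67 at day 13, a difference of −4.99, edgeR adjusted p = 0.00277, and Slc22a26 of −1.42 at day 9 and −3.29 at day 13, a difference of −1.88, edgeR adjusted p = 0.0142. Socs2 had 0.20 at day 9 and −2.09 at day 13, a difference of −2.29, edgeR adjusted p = 0.0168. All 3 genes had the lower value at day 13, and that of Socs2 was not negative at day 9. Among interferon-stimulated genes 9 of 52 had a called negative difference, with Iigp1 at −0.58 at day 9 and −1.67 at day 13, a difference of −1.09, edgeR adjusted p = 0.0325. Of stellate cell and matrix genes 8 of 44 did, with Col1a1 at 1.00 at day 9 and −1.33 at day 13, a difference of −2.34, edgeR adjusted p = 0.0362, and of monocyte markers 5 of 16, with Lyz2, the macrophage lysozyme, at 1.26 at day 9 and −0.74 at day 13, a difference of −2.00, edgeR adjusted p = 6.64e-04. Col1a1 and Lyz2 thus had effects of opposite sign on the 2 days. In the integrated stress response 6 of 31 genes had a called positive and 3 a called negative difference. The positive ones included Trib3 (1.69 at day 9 and 5.16 at day 13, a difference of 3.47, edgeR adjusted p = 0.00277). Of 12 snoRNA hosts 3 had a called positive difference, with Gas5 at 1.60 at day 9 and 2.95 at day 13, a difference of 1.34, edgeR adjusted p = 0.0292. Eif3m itself had −3.23 at day 9 and −3.94 at day 13, a difference of −0.71, edgeR adjusted p = 0.0572. Without day 9 siRNA replicate 1 the count of called differences was 130, and without day 13 siRNA replicate 3 it was 155.

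**Figure D5:**
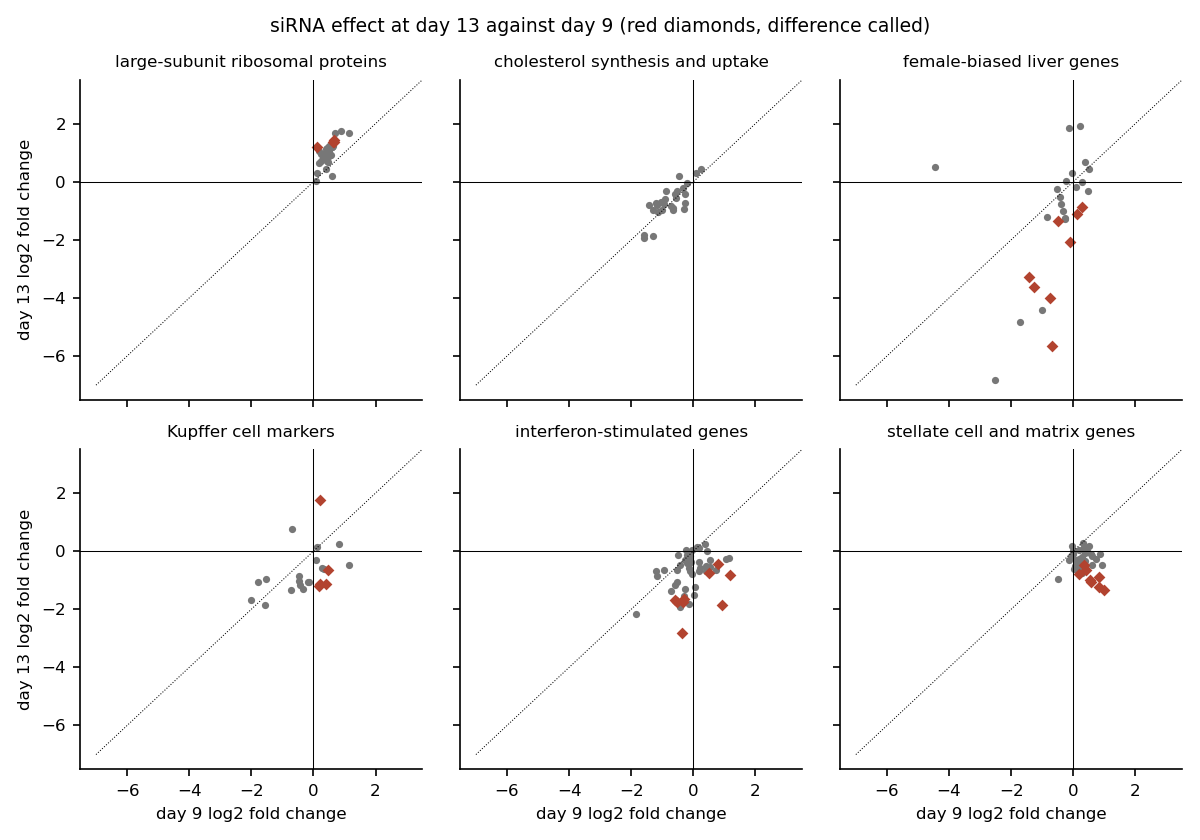
Each point is a gene of the list named above the panel, placed by its siRNA log2 fold change at day 9 (horizontal axis) and at day 13 (vertical axis) from the fit of all 12 libraries. Red diamonds mark genes whose difference between the days was called, and the dotted line marks equal effects. No cholesterol gene is marked, and called female-biased, interferon-stimulated and matrix genes lie below it.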

How the data were processed

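RNA had been purified from ground livers with a Qiagen RNeasy kit, and the day 13 libraries carry the label Neoprep, per the labels' protocols. The authors deposited estimated counts per Ensembl gene as whole numbers. STAR 2.5.3a, RSEM 1.3.0 and build mm10 are named per the submitters' processing notes, which give no roles. The sources used here name neither an annotation release nor a strand setting, so reads of overlapping or antisense genes cannot be told apart. Gene symbols for 50376 of 50686 gene IDs came from a table of Ensembl gene names, and the 310 IDs without one took 0.027% of the counts.

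The 6 day 13 libraries were fitted on their own with edgeR 4.0.16 in R 4.3.3 (filterByExpr with a minimum count of 10, TMM scaling, robust quasi-likelihood test, Benjamini-Hochberg adjustment). A gene was called at an adjusted p below 0.05, and "rose" and "fell" refer to calls. No columns were left unmapped and no libraries were duplicates. The tests were checked on simulated counts. The 3 libraries a group limit the precision, and intervals and floors cover counting error only. Differences between the days came from 1 fit of all 12 libraries. DESeq2 1.42.0, limma 3.58.1, other scalings and filters, a replicate block and left-out libraries were alternatives.

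The comparison and its 60 gene lists (1911 genes, of which 1689 were tested, 211 were below the filter and 11 matched no symbol) were chosen with earlier results of these data known. Genes named are Eif3m, the 15 highest rises and 15 steepest falls among called genes of at least 5 CPM without overlap, each list's marked key members and its 6 called members with the smallest p. Promoter windows and their coordinates are from RefSeq (GRCm38.p6), and positions of genes are from GENCODE M21. Motifs were searched in Python 3.11.15. Some genes that the rule names are not reported here.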

Additional observations from a re-analysis of the deposited data

Results flagged for a closer look

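For 57 of the 225 genes given with values, the siRNA effect differed between day 13 and day 9 by the interaction term of an edgeR fit of all 12 libraries (adjusted p from 0.000376 to 0.0481), where 2.55% of all 14248 genes were called. Many of the 225 were chosen by their day 13 values, which also enter this difference, so 2.55% is not a like background for them. Alternative fits of the difference were compared by their counts of calls only, not gene by gene. The numbers below are the log2 fold change at day 13 minus that at day 9, 25 of them positive and 32 negative. Day, library kit and depth cannot be told apart in these differences, and explanations were not tested.

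Among stress genes the difference was 3.47 for Trib3, 2.28 for Gdf15, 2.21 for Gadd45a, 1.60 for Ddit3, 0.91 for Plk2, 0.61 for Sqstm1, 2.04 for Hspb1, 1.51 for Junb and 6.20 for Egr1. In the opposite direction it was −2.78 for Hspa1b, −1.92 for Dnajb9, −1.32 for Ddit4, −1.23 for Bag3 and −1.19 for Eif2ak3. Trib3, Ddit3, Gdf15 and Gadd45a rose at both days, by 1.69, 2.60, 1.62 and 1.27 (log2) at day 9. Hspa1b rose at day 9 (1.37) and fell at day 13 (−1.42), and Egr1 fell at day 9 (−2.30) and rose at day 13 (3.90).

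Named genes of translation and ribosome production had these positive differences: 1.57 for Zfas1, 1.83 for Snhg1, 1.34 for Gas5, 1.30 for Cd3eap, 0.94 for Eef1b2, 0.89 for Eif3i, 0.74 for Farsb and 0.66 for Npm1. The guanine nucleotide enzyme Impdh2 had 0.80. The pseudogenes Rpsa-ps2 and Gm10157 had fitted differences of 10.10 and 7.67, values that depend on the prior count because their day 13 controls are at 0.

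Female-biased genes differed by −4.99 for A1bg, −2.36 for Sult3a1, −1.88 for Slc22a26 and −0.87 for Prlr, with −2.29 for the STAT5 target Socs2. Male-biased genes differed by 2.36 for Mup21, 2.35 for Hsd3b5 and 1.53 for C6. Of these female-biased genes Sult3a1, Slc22a26 and Prlr also fell at day 9, while A1bg was not called there, at −0.68.

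Metabolic and transport genes differed by −3.68 for Mfsd2a, −2.64 for G6pc, −2.54 for Slc22a7, −1.47 for Apoa5, −0.86 for Fmo1, −0.66 for Dgat2 and 1.87 for Cyp2u1. Acute phase genes differed by −3.19 for Orm2, −2.22 for Lcn2 and −0.69 for Crp. The duct factor Sox9 had 1.71.

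Genes of macrophages, interferon response and matrix had these negative differences: −2.34 for Col1a1, −2.00 for Lyz2, −1.64 for Ccr2, −1.53 for Adgre1, −1.39 for Csf1r, −1.11 for Slc40a1, −1.70 for Cd74, −1.44 for Ctss, −1.69 for H2-Q1, −2.45 for Zbp1, −1.41 for Usp18, −1.22 for Igtp and −1.09 for Iigp1. Lyz2 rose at day 9 (1.26) and fell at day 13 (−0.74), and Ccr2 rose at day 9 (1.24) with −0.40 at day 13, not called.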

How the results depend on the processing

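Of 325 called genes named by the rule, 322 kept call and direction with DESeq2, 324 with DESeq2 size factors, 323 with limma-voom, 319 with upper-quartile scaling, 315 without the filter on low counts and 308 of 309 with a mean of at least 5 CPM. None of these calls changed sign in any alternative run. The count of genes called at day 13 was 1821 to 2228 in these alternatives, against 2014. Fitting all 12 libraries raised it to 3377, with 1824 higher and 1553 lower genes. With 1 library left out it was 866 to 2010, with 471 to 1031 higher and 395 to 979 lower genes. Such fits have fewer samples, and 227 to 294 of the 325 named calls were kept. Leaving out control replicate 3 and siRNA replicate 2 together, an alternative chosen after the data were seen, gave 2600 and kept 302.

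Samples of the same replicate number correlated at 0.196, −0.0913 and −0.0407 in their deviations from the group means. Those of unlike numbers ran from −0.191 to 0.196. With 3 libraries a group these values cannot decide whether samples of the same number share more than that number. With the replicate block 1433 genes were called and 283 of the named calls kept. The difference between the days was called for 967 genes with DESeq2 (451 positive, 516 negative), for 117 with the replicate block (28 and 89) and for 130 to 508 with 1 library left out (34 to 260 and 96 to 248), against 364. The cause was not tested.

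At 7650269 to 9630027 counts a library, a gene near 1 CPM rests on few counts, which bears on Asns, Psat1, Mthfd2 and Ccr2, all below 3 CPM in both groups. Differences smaller than the spread between 3 libraries were not detectable for them.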
